A study of Mus musculus with 12 samples.

Results

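Untreated tumors of the human pancreatic cancer lines AsPC-1 and BxPC-3 were compared gene by gene. Members were the genes listed in both deposited tables with an FPKM of at least 1 in 2 or more of 5 control libraries, after the libraries had been rescaled to each other. They numbered 15743 of the 23445 genes listed in both tables. FPKM is here the number of reads of a gene scaled by its length and by a constant of the library.

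The tumors grew in mice as orthotopic grafts, that is in the pancreas, of AsPC-1 or BxPC-3 cells, both of wild-type genotype per the labels. The groups compared were AsPC-1 control tumors (3 libraries) and BxPC-3 control tumors (2 of the 3 libraries so labelled), both without arsenic trioxide (ATO). The ATO-treated tumors of the same lines (3 libraries each) served as further libraries for the same line difference. The labels do not say what the control mice received, nor the dose of ATO or the strain and age of the mice. Since no label ties replicates to separate animals, p-values cover only the spread between these libraries, which may be technical. Each group rests on 1 cell line, and the tumors also hold mouse cells, whose reads may have been counted on human genes.

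Both lines come from pancreatic ductal adenocarcinoma, a cancer of cells that resemble the duct epithelium of the pancreas. AsPC-1 was derived from ascites, the fluid of the abdominal cavity, and BxPC-3 from a primary tumor. Such lines are commonly set along an axis from a classical state, with glandular epithelial genes, to a basal state, with genes of stratified epithelium.

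The tables give genes only by identifiers that start with ENSG and pair none of them with a name. None of the 23445 identifiers (0) was among the 55450 of the name table used here, which is for the mouse. Lineage, adhesion and metabolic genes, deleted genes and cell type markers were therefore not analysed here by name. The genes are described by identifier, level, length and membership of identifier lists.

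The library labelled BxPC-3 control 3 stood apart and was left out of the BxPC-3 group because of its measured profile. Its median absolute difference per gene from the 3 AsPC-1 control libraries was 0.322, 0.161 and 0.185 on the log2(FPKM + 1) scale. From BxPC-3 control replicates 1 and 2 it was 0.578 and 0.604. Reads recovered from the FPKM steps totalled 13763301, 15723289 and 11219617 in the AsPC-1 control libraries. The totals were 16093524 and 19306890 in the BxPC-3 control libraries used and 16791561 in the library labelled BxPC-3 control 3.

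The lines lay farther apart than libraries of the same line. The 6 pairs of an AsPC-1 with a BxPC-3 control library had median absolute differences per gene of 0.573 to 0.62 (log2(FPKM + 1) scale). The 3 pairs within AsPC-1 had 0.308, 0.284 and 0.171, and the pair within BxPC-3 had 0.159. AsPC-1 control replicate 1 was in both of the wider AsPC-1 pairs. A control and an ATO library of AsPC-1 differed by 0.15 to 0.487, and a control and an ATO library of BxPC-3 by 0.173 to 0.272. These ranges lie below that of the pairs across the lines.

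**Figure D1:**
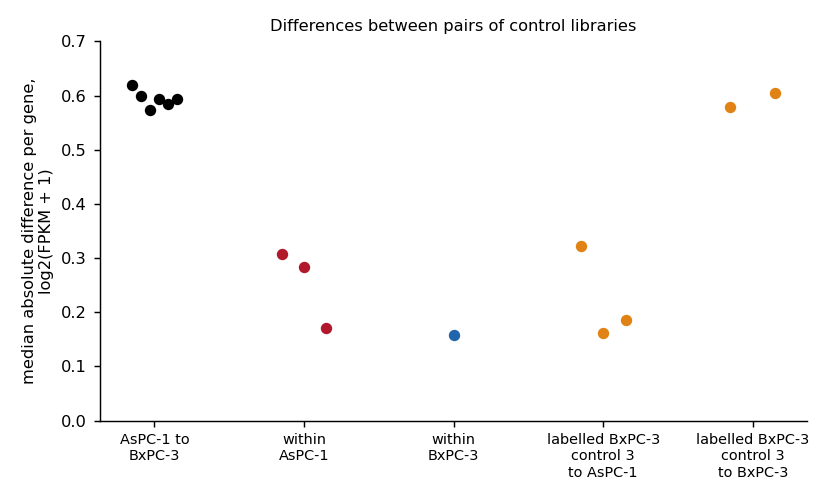
Median over 15743 genes of the absolute difference between 2 control libraries, in log2(FPKM + 1) after rescaling (y axis), by kind of pair (x axis), with 1 point per pair. Pairs across the lines lie at 0.573 to 0.62, pairs within a line at 0.159 to 0.308, and the library labelled BxPC-3 control 3 lies at 0.161 to 0.322 from AsPC-1 and at 0.578 and 0.604 from BxPC-3.

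A large share of the genes differed between the lines, in nearly equal numbers in each direction. In AsPC-1 control tumors 3651 genes were higher than in BxPC-3 control tumors, 23.2% of those tested, and 3693 were lower, 23.5% (limma on log2(FPKM + 1), Benjamini-Hochberg adjusted p under 0.05, n = 3 and 2). Together these were 7344 genes, or 46.6%. In all 7344 the 3 AsPC-1 libraries lay on one side of both BxPC-3 libraries. Such a separation was present in 5341 genes with AsPC-1 higher and 5242 with AsPC-1 lower, or 33.9% and 33.3% of all tested. In bulk tumors, fewer cells of a type and less RNA per cell cannot be told apart.

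With the library labelled BxPC-3 control 3 kept in its labelled group, 0 of 16120 genes passed in limma, and 2755 were under 0.05 before adjustment. In voom, which runs limma on log-scaled reads, that library again kept, the counts were 0 of 17003 and 2670. The number of calls also rested on having 2 BxPC-3 libraries: without BxPC-3 control replicate 1 there were 1879 higher and 2196 lower, and without replicate 2 there were 1993 and 2068. In these fits the remaining BxPC-3 library was assumed to vary like the AsPC-1 libraries.

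The differences were mostly moderate in size. The middle portion of all log2 fold changes, from the lower to the upper quartile, ran from -0.53 to 0.56 around a median of 0.0043. Among called genes the median size was 1.05 for those higher in AsPC-1 and 0.99 for those lower, on the log2(FPKM + 1) scale. The smallest called sizes were 0.41 in each direction, with a median standard error of 0.19 over all tested genes. A change of at least 2-fold was reached by 1967 of the higher and 1800 of the lower genes, and at least 8-fold by 172 and 152. At least 32-fold was reached by 22 higher and 26 lower genes.

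**Figure D2:**
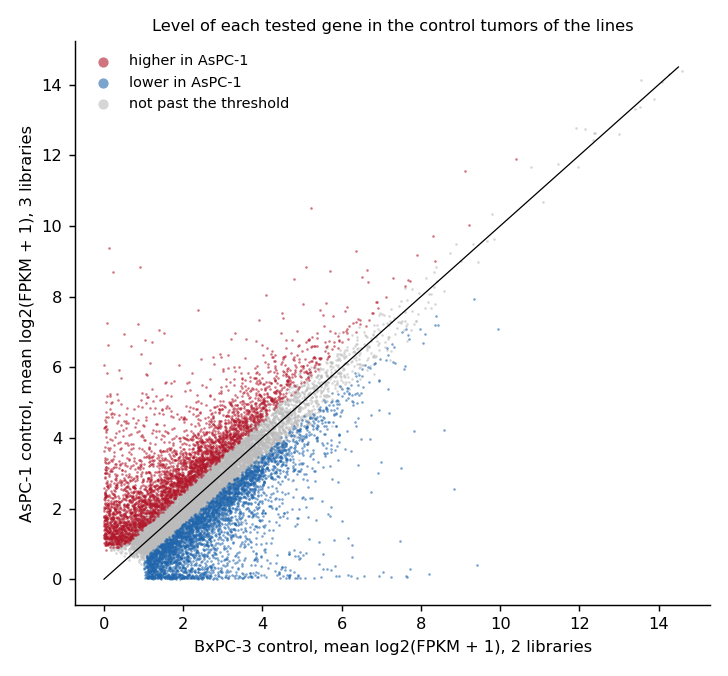
Each of 15743 tested genes by its mean log2(FPKM + 1) in 3 AsPC-1 control libraries (y axis) and in 2 BxPC-3 control libraries (x axis), with the line of equal levels. The 3651 genes higher in AsPC-1 lie above the line and the 3693 lower in AsPC-1 lie below it, and genes along both axes were near 0 FPKM in the other line.

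Genes missing from either table were not tested and could not enter the sets below. Among the tested genes, those that set the lines apart most were taken to be the ones called and changed by at least 4-fold. There were 501 higher in AsPC-1, 3.18% of those tested, and 458 lower, 2.91%. These counts depended on the scale for low values, with 1118 higher and 1087 lower at a pseudocount of 0.1 and 1379 and 1546 with voom on the recovered reads. The values below chose these sets and are given as a description.

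The 501 genes had library medians of 15.2, 15 and 14.6 FPKM in AsPC-1 control tumors, against 0.795 and 0.905 FPKM in BxPC-3 control tumors. Of these, 201 averaged under 0.5 FPKM in BxPC-3, while their median in AsPC-1 was 7.66 FPKM. The 458 genes had medians of 0.406, 0.406 and 0.335 FPKM in AsPC-1 control tumors, against 11.7 and 12.4 FPKM in BxPC-3. Of these, 248 averaged under 0.5 FPKM in AsPC-1, while their median in BxPC-3 was 6.75 FPKM. Among the genes under 0.5 FPKM in the lower line, 4 reached at least 100 FPKM in AsPC-1 and 8 did so in BxPC-3.

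In each table every listed gene was above 0 in 4 or more of the 6 libraries, so a gene at 0 in all libraries of a line cannot be a member. None of the 501 genes (0) was at 0 reads in both BxPC-3 control libraries used. For the 458 genes the count was also 0 but was fixed by the listing. A gene at 0 in all 3 AsPC-1 control libraries would have too few libraries above 0 to be listed. In both sets the genes under 0.5 FPKM in the lower line had a median of 6 reads per library there.

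The tested genes with the largest differences were close to silent in the line with the lower level. Each is named by the size of its difference among called genes of at least 10 FPKM in the higher line. Their values are FPKM after rescaling all 12 libraries. ENSG00000146674, a gene model of 4571 bases, had 699, 935 and 486 FPKM in AsPC-1 control tumors, against 0.139 and 0.0474 FPKM in BxPC-3 control tumors. The groups were far apart, with 28474 to 77969 reads per AsPC-1 library and 12 and 5 reads in the BxPC-3 libraries. In limma the log2 fold change came to 9.24 with a standard error of 0.28 (adjusted p = 1.02e-05). In ATO tumors it had 696, 329 and 346 FPKM in AsPC-1 and 0.0541, 0.173 and 0.0655 FPKM in BxPC-3. In the library labelled BxPC-3 control 3 it had 498 FPKM, within the AsPC-1 range.

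ENSG00000250920, of 830 bases, showed the same separation. It had 389, 566 and 367 FPKM in AsPC-1 control tumors, against 0.255 and 0.104 FPKM in BxPC-3 control tumors. In limma the log2 fold change came to 8.48 with a standard error of 0.23 (adjusted p = 9.35e-06). In ATO tumors its values were 386, 536 and 624 FPKM in AsPC-1 and 0.0497, 0.254 and 0.0515 FPKM in BxPC-3. The library labelled BxPC-3 control 3 had 408 FPKM of this gene. Its BxPC-3 values stand for 1 to 4 reads per library.

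In the other direction, ENSG00000165272, of 2950 bases, had 0.453, 0.149 and 0.449 FPKM in AsPC-1 control tumors, against 691 and 719 FPKM in BxPC-3 control tumors. In limma the log2 fold change came to -9.00 with a standard error of 0.17 (adjusted p = 4.59e-06). In ATO tumors it had 0.199, 0.227 and 0.0476 FPKM in AsPC-1 and 646, 1098 and 1126 FPKM in BxPC-3. All AsPC-1 libraries were thus under 1 FPKM and all BxPC-3 libraries at 646 FPKM or above, except the library labelled BxPC-3 control 3 with 0.263 FPKM.

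ENSG00000184292, of 2351 bases, had 0.12, 0.0233 and 0.199 FPKM in AsPC-1 control tumors, against 309 and 294 FPKM in BxPC-3 control tumors. These were 1 to 6 reads per AsPC-1 library and 13755 and 15927 reads in the BxPC-3 libraries. In limma the log2 fold change came to -8.05 with a standard error of 0.15 (adjusted p = 4.59e-06). In ATO tumors it had 0.0554, 0.0285 and 0 FPKM in AsPC-1 and 266, 380 and 347 FPKM in BxPC-3. The library labelled BxPC-3 control 3 had 0.141 FPKM.

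**Figure D3:**
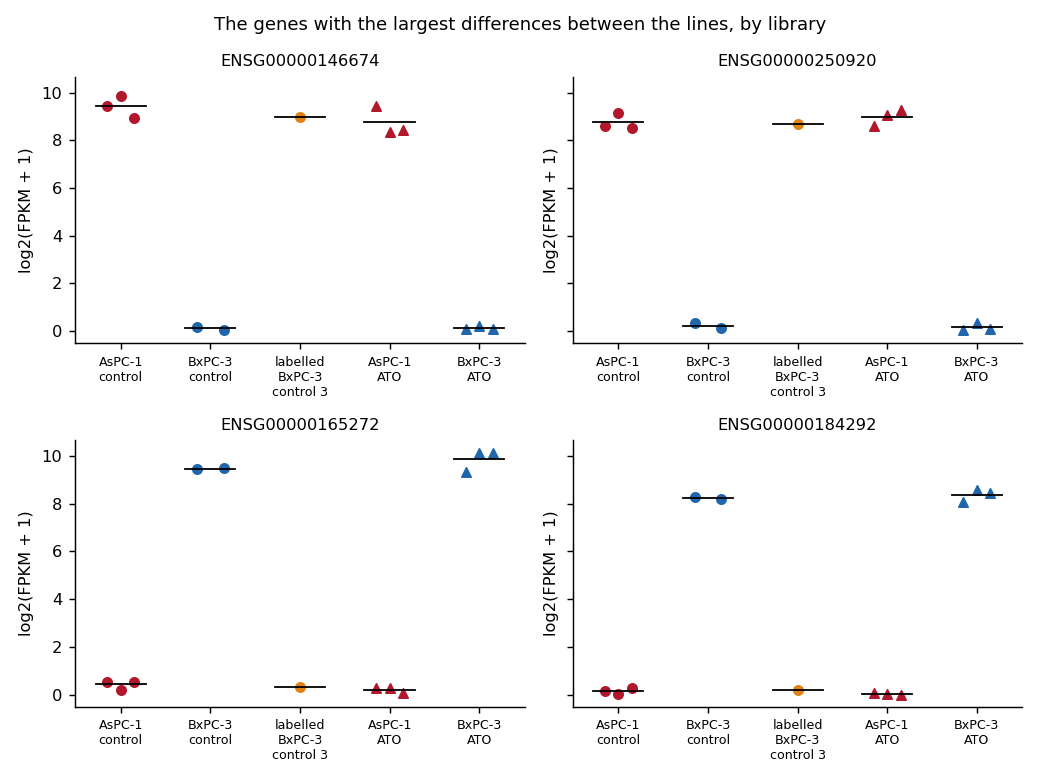
Values of the 2 tested genes with the largest positive and the 2 with the largest negative difference, in log2(FPKM + 1) after rescaling all 12 libraries (y axis), by group (x axis), with 1 point per library and a bar at the group mean. In each gene the lines do not overlap, and the library labelled BxPC-3 control 3 lies with AsPC-1.

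The line difference was then measured in ATO tumors, which share no library with the control comparison. Of the 7344 genes called in control tumors, 7212 were tested in ATO tumors. There 5770 of them, 80.0%, were called in the same direction and 31 in the opposite one (limma, n = 3 and 3). Without BxPC-3 control replicate 1 or 2, fewer genes were called in control tumors, so fewer could be called again in ATO tumors. Among all 16696 genes tested in ATO tumors, 28.6% were called higher in AsPC-1 and 28.7% lower, together 57.3%. At least 4-fold higher were 4.06% and at least 4-fold lower 3.29%. Of the 501 genes at least 4-fold higher in AsPC-1 control tumors, 496 were called higher in ATO tumors. Of the 458 at least 4-fold lower, 450 were called lower.

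The called genes higher in AsPC-1 had a median log2 fold change of 1.06 in ATO tumors and 1.05 in control tumors. Those lower in AsPC-1 had a median size of 1.06 in ATO tumors and 0.99 in control tumors. A test of the difference itself, control minus ATO in 1 model of 11 libraries, was passed by 0 of 17207 genes in limma. Before adjustment 2605 were under 0.05, and no adjusted p lay below 0.0862. Without rescaling, the median log2 fold change of all genes in ATO tumors was 0.19, against 0.0010 after rescaling. The ATO comparison then called 5647 genes higher in AsPC-1 and 3852 lower, against 4775 and 4786 after rescaling. At 4-fold or more it called 835 and 449 without rescaling, against 678 and 550 after it.

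**Figure D4:**
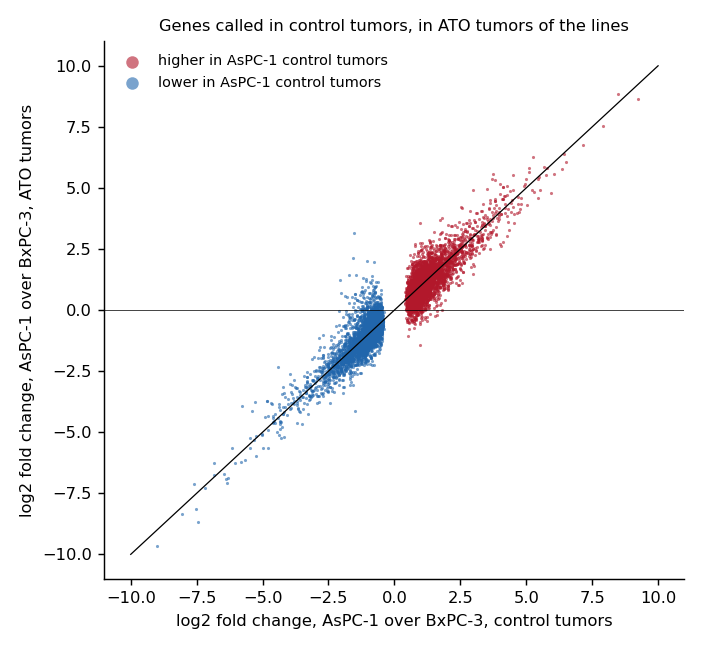
The 7212 genes called in control tumors and tested in ATO tumors, by log2 fold change of AsPC-1 over BxPC-3 in control tumors (x axis) and in ATO tumors (y axis), with the line of equal change. Of the genes higher in AsPC-1 control tumors 96.9% kept their sign in ATO tumors, and of those lower 95% did.

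Line and table coincide, since each line was deposited in a table of its own, and tables may have been scaled separately. The library labelled BxPC-3 control 3 was deposited in the BxPC-3 table. Its values lay nearer to the AsPC-1 mean than to the BxPC-3 mean in 3437 of the 3651 genes higher in AsPC-1 and in 3513 of the 3693 lower. Among the genes of at least 4-fold these counts were 499 of 501 and 454 of 458. The library had medians of 15.1 FPKM over the 501 genes and 0.382 FPKM over the 458 genes. It was left out for its profile over all genes, and these genes were chosen for the line difference, so its place between the lines is a description. Within the 5 libraries compared, a difference between the tables and a difference between the lines cannot be told apart. The source of the labelled library was not tested.

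**Figure D5:**
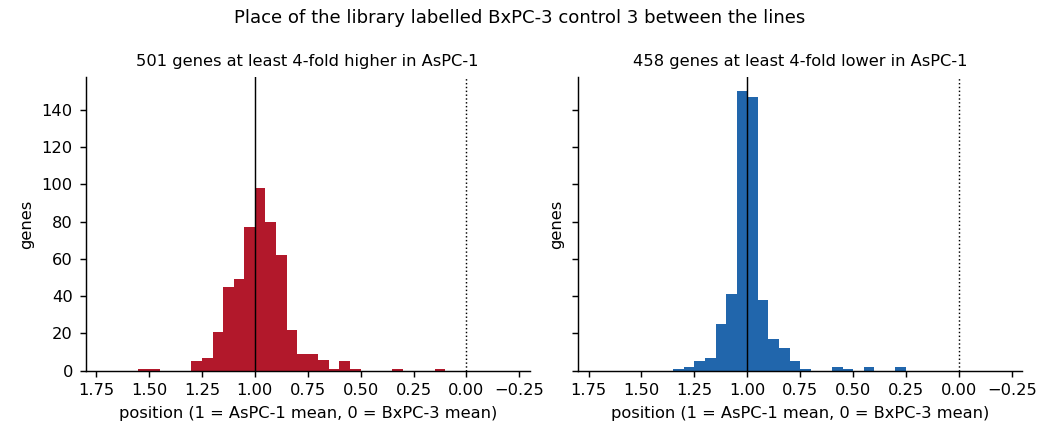
Number of genes (y axis) by where the library labelled BxPC-3 control 3 lies between the line means in log2(FPKM + 1) (x axis, 1 for the AsPC-1 mean and 0 for the BxPC-3 mean), for 501 genes at least 4-fold higher (left) and 458 at least 4-fold lower in AsPC-1 (right). Values beyond the axis are drawn at its ends. The medians are 0.976 and 1.0.

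The split of calls by level was present after rescaling, without rescaling and with voom, but nearly absent with quantile normalization. Genes were put in classes by the mean of the AsPC-1 and the BxPC-3 mean FPKM, with both lines weighted equally, and the difference between classes was not tested. Of 2805 genes of at least 10 and under 30 FPKM, 27.9% were called higher in AsPC-1 and 19.7% lower. Of 742 genes of at least 30 and under 100 FPKM the shares were 32.6% and 19.5%, and of 6069 genes under 3 FPKM they were 20.7% and 25.9%. Without rescaling the shares were 30.7% and 19.9% from 10 to 30 FPKM and 35.4% and 19.4% from 30 to 100 FPKM. Under 3 FPKM they were 20.4% and 24.1%. With voom on recovered reads they were 30.6% and 22.2%, 34.8% and 21.7%, and 23.1% and 31.8%, in the same order of classes. Quantile normalization gives all libraries the same distribution of levels. With it the shares were nearly level, at 26.2% and 25.7% from 10 to 30 FPKM and 28.7% and 28% from 30 to 100 FPKM. Under 3 FPKM they were 22.9% and 24.4%. A mean over the 5 libraries, which counts AsPC-1 3 times and BxPC-3 2 times and so moves genes high in AsPC-1 into upper classes, gave wider splits, such as 36.6% and 16.3% from 30 to 100 FPKM.

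Median differences by gene length were small, positive in short and negative in long genes, and were not tested. For the 1180 genes shorter than 300 bases the median log2 fold change was 0.11. For 2282 genes from 300 up to 1200 bases it was 0.093, and for the 4512 genes with at least 6000 bases it was -0.054. In the shortest class 17.0% were called higher and 10.3% lower, and in the longest 21.6% and 27.0%. The signs of these medians were the same without rescaling, with quantile normalization and with voom on recovered reads, which kept 282 genes in the shortest class. From 3000 up to 6000 bases the median was -0.0201, and without rescaling it was 0.00903.

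For the most abundant genes the shares of reads overlapped between the lines. The 20 genes with the largest mean share over the 5 libraries held 18.2%, 20.8% and 23.0% of the reads in AsPC-1 control tumors and 24.4% and 16.3% in BxPC-3 control tumors, so the groups overlapped. The means were 20.7% ± 2.39 (SD, n = 3) and 20.4% ± 5.71 (SD, n = 2), a difference of 0.297 percentage points (two-sided exact permutation p = 0.9, where 3 against 2 libraries cannot go below 0.1). In the library labelled BxPC-3 control 3, left out here, the same 20 genes held 31.0% of the reads. Of the 20 genes 3 were called higher in AsPC-1 and 0 lower, against 23.2% and 23.5% of all tested. The 100 most abundant genes of AsPC-1 and the 100 of BxPC-3 shared 61, or 61 in 100 of each list.

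Genes that mark phases of the cell cycle were called in both directions in each list. The lists were human identifiers distributed with the R package scran as markers of the phases G1, S and G2M, kept where they marked 1 phase only. Of the 42 tested members of the G2M list, which marks the approach to division, 13 were higher in AsPC-1 and 6 lower, with a median log2 fold change of 0.26. Of the 27 tested members of the S list, which marks DNA replication, 10 were higher and 7 lower, with a median of 0.31. Of the 21 tested members of the G1 list 5 were higher and 3 lower, with a median of 0.036. These counts changed when a library was left out. So did the counts over all tested genes, which fell without either BxPC-3 control replicate. Without BxPC-3 control replicate 1 the higher and lower members were 3 and 5 in G2M, 4 and 4 in S, and 1 and 3 in G1. Without BxPC-3 control replicate 2 they were 6 and 5, 4 and 3, and 1 and 1. Without AsPC-1 control replicate 3 they were 8 and 6, 6 and 5, and 3 and 2, and without AsPC-1 control replicate 1 the G1 list had 4 and 6. With voom the G1 list had 5 and 7, with quantile normalization 6 and 6, and with the library labelled BxPC-3 control 3 kept every list had 0 and 0. Against the counts over 5 libraries stand 23.2% higher and 23.5% lower and a median of 0.0043 over all tested genes. Without AsPC-1 control replicate 3, 3047 of all 15743 tested genes were higher and 2902 lower. Without AsPC-1 control replicate 1 they numbered 4175 and 4287. Voom called 4293 higher and 4659 lower of 16704 genes, and quantile normalization 3746 and 3948 of 15757.

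The S list had medians of 4.66, 4.66 and 4.56 FPKM in AsPC-1 control tumors and 3.6 and 3.64 FPKM in BxPC-3 control tumors, without overlap. The G2M list had 6.28, 5.39 and 6.44 FPKM in AsPC-1 and 5.54 and 6.09 FPKM in BxPC-3, with overlap. The G1 list had 37.7, 18.7 and 24.1 FPKM in AsPC-1 and 18.4 and 18.1 FPKM in BxPC-3, and AsPC-1 control replicate 1 held the highest value. In ATO tumors the median log2 fold changes were 0.04 for the S list, 0.22 for the G2M list and -0.73 for the G1 list.

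Genes listed in 1 table alone entered no comparison. There were 3375 in the AsPC-1 table and 4012 in the BxPC-3 table, with median levels of 0.178 FPKM in AsPC-1 control tumors and 0.215 FPKM in BxPC-3 control replicates 1 and 2, on the deposited scale. Most were thus low. Of the AsPC-1 genes 56 had at least 5 FPKM in all 3 control libraries, with a median of 14 FPKM, and the medians of these genes in the 3 AsPC-1 ATO libraries were 14.6 to 21.1 FPKM. Of the BxPC-3 genes 103 had at least 5 FPKM in both control libraries used, with a median of 13.4 FPKM, and in the BxPC-3 ATO libraries their medians were 10.3 to 13.6 FPKM. In the library labelled BxPC-3 control 3, 69 of these 103 genes were listed at 0. Over the whole BxPC-3 table that library had 25234 of 27457 genes above 0. The 103 genes were chosen for absence from the AsPC-1 table, so the count of 69 is a description. A level of these genes in the other line was not analysed here.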

How the data were processed

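The authors deposited 1 table of FPKM values per line. Their unit was inferred from how the values step. The protocol in the labels names total RNA and the SMARTer mRNA-Seq kit. GRCm38, mm10 and hg38 appear in the submitters' processing notes without a role. Aligner, counter, annotation and the handling of mouse reads are not given in the sources used. How the authors set the library constant is not stated, and the recovered reads were 76.7% to 88.7% of the total it implies in the 5 libraries compared. In the ATO libraries they were 105.2% to 118.2% of it in AsPC-1 and 72.6% to 79.3% in BxPC-3. In the library labelled BxPC-3 control 3 they were 98.1% of it.

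Whole reads and gene lengths were recovered from the steps of the values with Python 3.11.15 and numpy 2.4.6 (lengths up to 30000 bases, whole within 0.05 reads). This gave whole reads for 99.91% of the AsPC-1 and 99.92% of the BxPC-3 values. A space was removed from 1 value. Libraries were rescaled by the median ratio over genes above 0 in all of them. The factors were 0.925 to 1.06 in the control comparison and 0.875 to 1.15 in the ATO comparison.

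Lines were compared by limma 3.58.1 (R 4.3.3), using eBayes with a trend, on log2(FPKM + 1), which understates the change of low genes, with Benjamini-Hochberg adjustment over all genes tested and a threshold of 0.05. Both the recovery of reads and the limma step were tested on simulated data. There limma found 98.4% of the 4-fold changes and 33% of the 2-fold ones, all placed in genes averaging at least 2 FPKM. Of its calls 8.96% were false, above the threshold of 0.05, so the adjusted p may be too small. The simulation changed 100 genes per fold size among 14984 to 15054 genes, far fewer than were called here. Since the shares of changes found and of false calls depend on that number, they are not estimates for these data. Replicate numbers 1 and 2 occur in both lines, but no label says that they mark a shared litter or day, so they were not taken to pair the libraries.

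The members, lists and tests were chosen with earlier results of these data known. Lists of gene symbols could not be matched, as no human name table was at hand, and the cell cycle lists were then taken up, with the values in view. Symbols were also a condition for naming genes. In their absence the 2 called genes with the largest change in each direction are printed, averaging 10 FPKM or more in the higher line, without overlap of groups. The classes of level and length and the genes of 1 table were added after the data were seen. Alternatives were other scalings, pseudocounts and filters, no trend, a fold change of at least 2, a replicate block, the library labelled BxPC-3 control 3 kept, 1 model over 11 libraries, voom on recovered reads with at least 1 CPM in 2 libraries, and leaving out each library.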

Additional observations from a re-analysis of the deposited data

Results flagged for a closer look

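The library labelled BxPC-3 control 3 was not part of the 5 libraries compared. Over the 501 genes at least 4-fold higher in AsPC-1 its median was 15.1 FPKM, against 0.795 and 0.905 FPKM in BxPC-3 control replicates 1 and 2. The AsPC-1 control libraries had 15.2, 15 and 14.6 FPKM. Over the 458 genes at least 4-fold lower in AsPC-1 its median was 0.382 FPKM, against 11.7 and 12.4 FPKM in BxPC-3 control replicates 1 and 2. The source of this library was not tested.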

How the results depend on the processing

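Of 258 values recomputed under alternatives, 189 stayed on their side of the threshold or within the allowed spread, 61 moved further, 8 values no longer passed and 0 reversed. With the library labelled BxPC-3 control 3 kept in its group, 0 genes were called in either direction, at 4-fold or shared with ATO tumors, in limma and in voom. With at least 5 FPKM there were 2333 higher and 1954 lower genes, and 3365 were called in the same direction in ATO tumors. With a fold change of at least 2 there were 1967 and 1800. Genes of at least 4-fold numbered 1118 higher and 1087 lower at a pseudocount of 0.1, and 1379 and 1546 with voom. Leaving out each library gave 1879 to 4175 higher and 2068 to 4287 lower genes, and at 4-fold 492 to 530 and 440 to 492. Genes also called in ATO tumors numbered 3491 to 6606 when each control library was left out, with 3643 without BxPC-3 control replicate 1 and 3491 without replicate 2. Those 2 fits have 1 BxPC-3 control library. The cause was not tested.

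With the replicate block, 2848 genes were higher and 2796 lower, and 524 and 451 at 4-fold. With voom and the replicate block there were 1403 and 1524 at 4-fold. Same-numbered libraries had correlations of their deviations from the line mean of -0.226 and -0.155. The deviations of BxPC-3 control replicate 2 are those of replicate 1 with the sign turned, so these values are not separate checks. The 4 named genes kept their direction in 17 alternatives each, and passed in 15 of them. They did not pass in the 2 that kept the labelled library, where adjusted p reached 0.315, 0.315, 0.43 and 0.571.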
